A study of Mus musculus with 8 samples.

Results

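Autophagy delivers cytoplasm and organelles to the lysosome, and the lysosome breaks them down. The 41 genes described here encode 25 proteins of the autophagy machinery, 2 transcription factors that drive autophagy and lysosome genes, and 14 proteins of the lysosomal membrane and lumen. They were chosen by name and role, with no measured value in the rule, though with earlier results of these data known. All 41 were among the 17997 genes tested, of 36047 genes with a transcript in the files. The cells were nGFP+ muscle stem cells (MuSCs) sorted from the quadriceps and gastrocnemius of Pax7-nTnG mice, in which a tamoxifen-activated Cre under the Pax7 gene switches a ubiquitous nuclear tdTomato to nuclear GFP. All mice were males aged 5 to 6 months that received tamoxifen, and they were fed for 8 weeks either a diet without vitamin A (VA-free, 3 mice, 4 libraries) or normal chow (control, 2 mice, 4 libraries). The VA-free diet was a custom formula and the control diet normal chow, so vitamin A and the rest of the formula cannot be told apart. The RNA of a mouse had been split at the spin column into technical replicates A and B, and both were sequenced for VA-free mouse 3 (3A, 3B) and control mice 1 (1A, 1B) and 2 (2A, 2B), but 1 of them for VA-free mice 1 (1B) and 2 (2A). The authors' estimated counts summed to between 44831232 and 88650428 per library. They were added per gene and over the libraries of a mouse, so that n counts mice, and a mean is given ± SD over the mice of a diet (3 VA-free, 2 control). Levels below are TMM-normalized counts scaled to a common library total (CPM), a log2 fold change is VA-free over control, and a gene is called at a Benjamini-Hochberg adjusted p under 0.05 in edgeR's quasi-likelihood test over all genes tested.

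MuSCs are the quiescent stem cells of skeletal muscle. Autophagy is known to keep their quiescence, since it clears worn proteins and mitochondria in a cell that rarely divides, and it supplies energy when they activate. It starts when the ULK kinase complex, held in check by mTORC1 when nutrients are plentiful, phosphorylates the class III PI 3-kinase complex. PI3P on the young membrane then recruits WIPI proteins, ATG2 and ATG9 feed it with lipid, and a pair of ubiquitin-like reactions couple the small Atg8 proteins (the LC3 and GABARAP families) to phosphatidylethanolamine. Cargo receptors tie ubiquitinated cargo to the Atg8 proteins, and the closed autophagosome fuses with a lysosome, whose acid hydrolases digest the content.

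The libraries differed in ways that bear on these genes. Control libraries 2A and 2B are labelled as technical replicates of 1 mouse, yet over the 41 genes their log2 CPM differed by a root mean square of 1.04, against 0.37 between control 1A and 1B and 0.18 between VA-free 3A and 3B. Control 2A was the highest of the 8 libraries for 14 of the genes and the lowest for 17. Whether library 2A or 2B represents control mouse 2 was not tested, and each value of that mouse rests on both. The log2 fold change also varied with the transcript length of the gene. Its r with log2 length was 0.54 over the 41 genes and 0.24 over all genes tested, where genes are not independent and no test was made. The 10 MuSC markers were all higher on the VA-free diet and their summed level was 5252 to 5939 CPM, against 1899 to 3436 CPM in the control libraries. Markers of endothelial cells were all lower (10 of 10, 240 to 322 against 1194 to 2814 CPM), and so were 6 of 7 tenocyte markers (40.1 to 67.4 against 683 to 1199 CPM), 6 of 10 pericyte and smooth muscle markers, with 1 higher (1732 to 2020 against 2758 to 3370 CPM), and 5 of 14 macrophage and monocyte markers (28.2 to 170 against 205 to 991 CPM). Of 10 markers of fibro-adipogenic progenitors 6 were lower and 1 was higher (16790 to 19090 against 8883 to 15130 CPM), of 10 myofiber markers 6 were lower (245 to 307 against 408 to 473 CPM), and of 8 Schwann cell markers 6 were lower and 1 was higher (518 to 605 against 484 to 858 CPM). Of 4 erythroid markers 3 were lower (16.5 to 128 against 479 to 1003 CPM), and of 6 markers of activated MuSCs 1 was higher (781 to 914 against 564 to 860 CPM). No marker was at 0 in all VA-free libraries. The log2 fold changes of the 2 most abundant markers of each list were 0.73 and 1.10 for Vcam1 and Sdc4 (MuSC), 1.38 and 0.19 for Col3a1 and Gsn (fibro-adipogenic progenitors), -3.61 and -0.65 for Pecam1 and Tek (endothelial), -0.36 and 2.78 for Acta2 and Notch3 (pericyte), and -3.35 and -1.94 for Lyz2 and C1qb (macrophage). They were -0.43 and -1.43 for Acta1 and Tnnt3 (myofiber), -3.59 and 1.23 for Mbp and Ncam1 (Schwann), -5.06 and -4.84 for Fmod and Thbs4 (tenocyte), -3.72 and -3.53 for Hba-a1 and Hbb-bs (erythroid), and 0.46 and -0.10 for Myog and Ccnd1 (activated MuSC). In RNA from a sorted population, a change of RNA per cell and a change in the share of cells of a type cannot be told apart.

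The genes did not move in a common direction. Of the 41 genes 9 rose and 11 fell on the VA-free diet while 21 were not called, and the median log2 fold change was 0.01, beside 0.00 over all genes tested. In the background 18.9% of all genes tested rose and 22.5% fell. The rises included genes that start and extend the membrane (Ulk1, Ulk2, Atg2a and Wipi2), the receptors Sqstm1 and Nbr1, the transcription factor Tfe3, the cholesterol transporter Npc1 and the glycogen hydrolase Gaa. The falls included genes for Atg8 proteins (Map1lc3b, Gabarap, Gabarapl2) and the enzymes that attach them (Atg3, Atg5), the receptor Optn, the proteases Ctsa, Ctsz and Ctsk and the soluble proteins Npc2 and Psap. Of the 20 calls 6 held in each of the 24 other settings tried, namely those of Ulk2, Atg2a, Wipi2, Map1lc3b, Ctsk and Npc2.

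**Figure D1:**
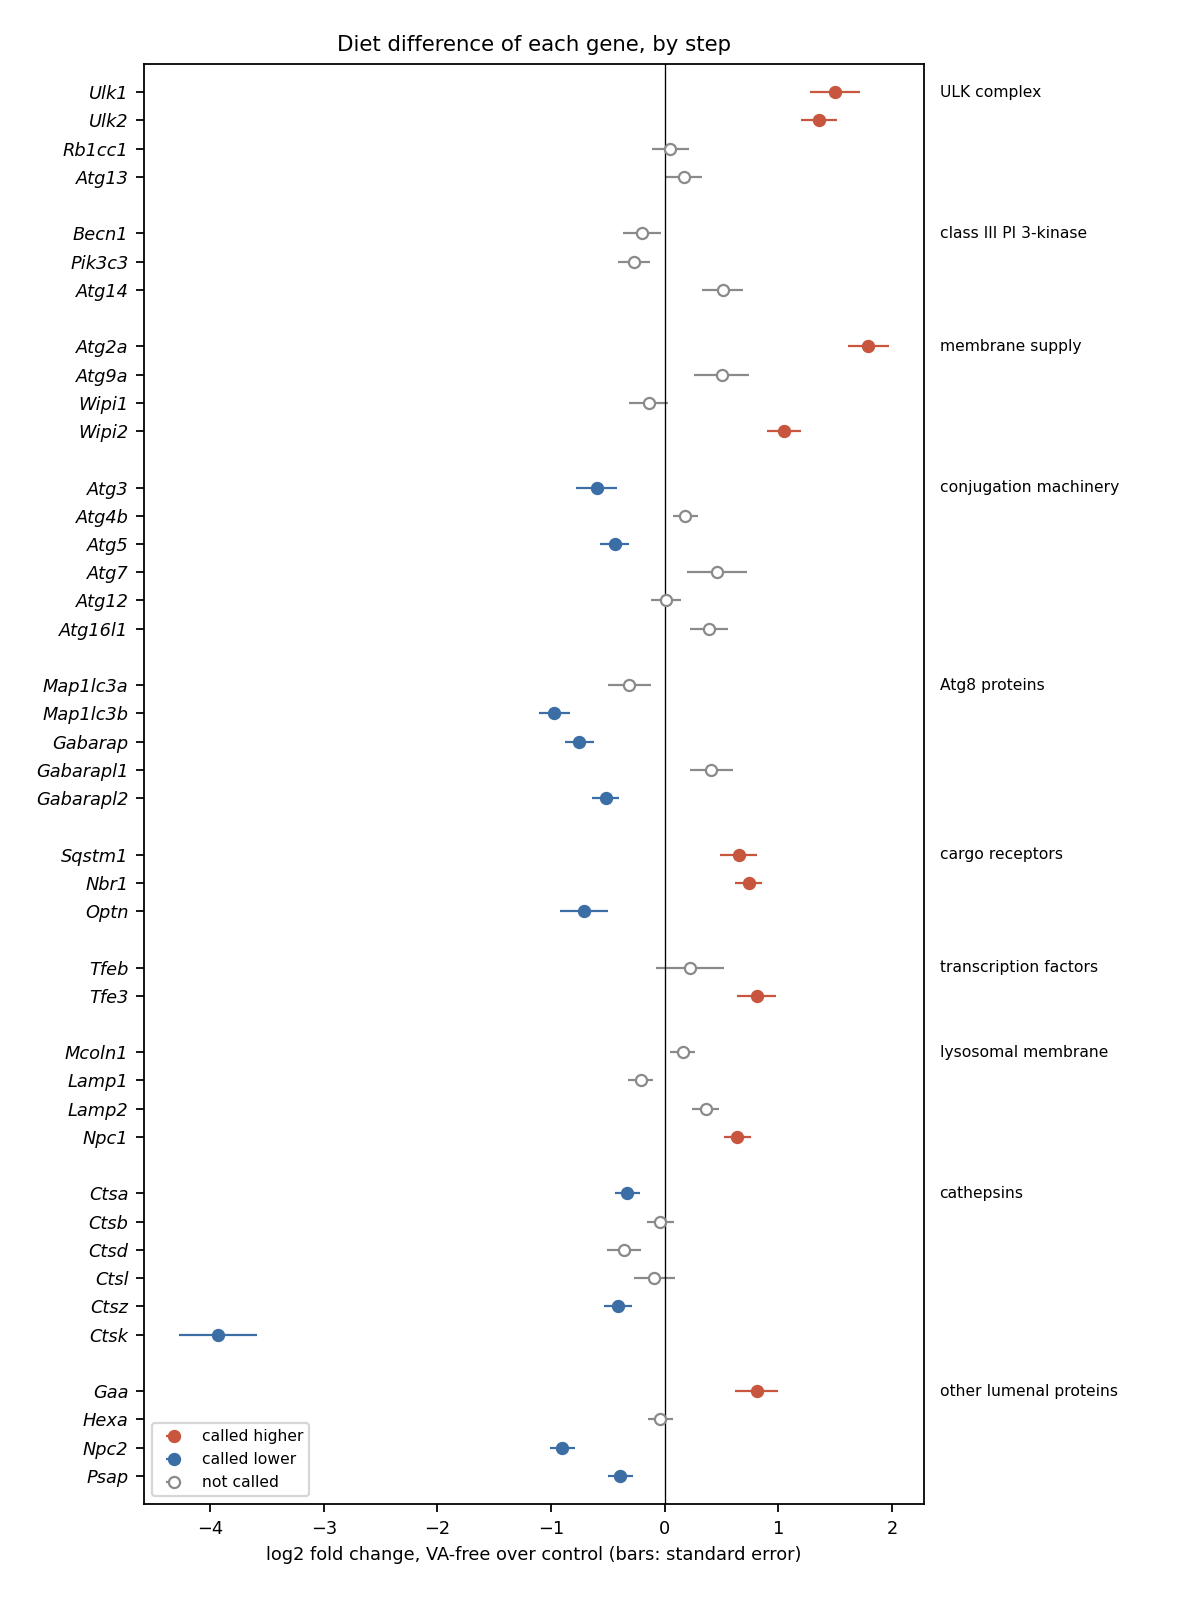
Log2 fold change (VA-free over control) of the 41 genes with its standard error as bars, ordered by step from the ULK complex at the top to the lumenal proteins at the bottom; filled points passed the threshold in edgeR's test. Ctsk lies apart at -3.93, and the points called higher lie between 0.64 and 1.79.

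In 29 of the genes the mice fell into separate ranges by diet. All VA-free mice were above both control mice for 16 genes and below both for 13, where 31% and 32.3% of all genes tested did so. Taken by library, all 4 VA-free libraries were above all 4 control libraries for 10 genes and below them for 10, where the background was 19.9% and 21.4%. These shares lie near the background for the whole table, and nothing particular to these genes is read from them.

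**Figure D2:**
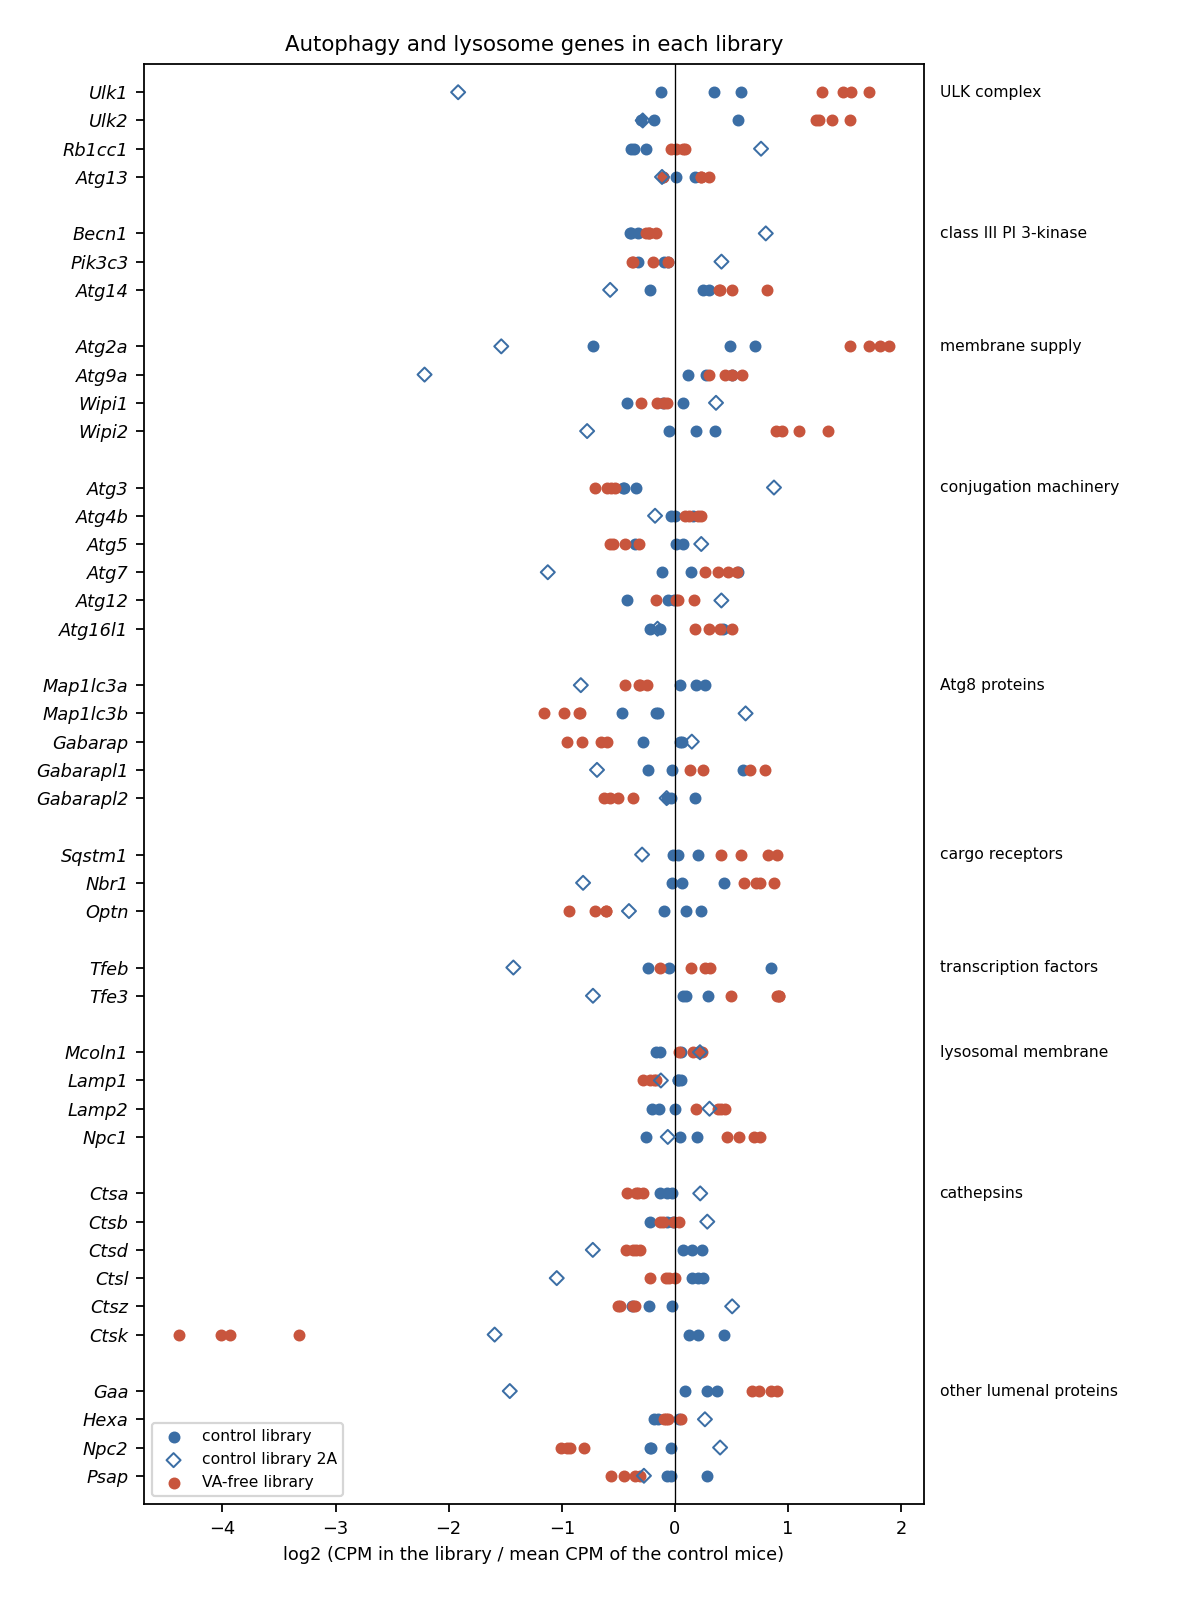
Log2 of the CPM in each library over the mean CPM of the 2 control mice, for the 41 genes in order of step; red points are VA-free libraries, blue points control libraries and open diamonds control 2A. The red points lie close together, and the open diamond is often the outermost control library, for example for Ulk1 at 12.4 CPM and Atg3 at 224 CPM.

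Per length the levels of these genes ranged widely. TPM were not normalized between libraries, so they serve here to order the genes within a diet. With a pseudocount of 1 the median log2 fold change of all genes tested was 0.19 in TPM. A TPM difference between the diets can thus differ from that in CPM, where for example Ctsz was called lower (log2 fold change -0.41). In TPM Sqstm1 was the highest on both diets (1833 on VA-free, 854 on control), followed by Ctsb (1054 and 826), Ctsl (927 and 730) and Ctsz (579 and 562). The lowest on the VA-free diet were Ctsk at 2.26 TPM, Optn at 5.03, Atg14 at 9.70 and Atg2a at 10.2, and on control Atg2a at 2.42, Atg14 at 6.45 and Optn at 6.47, where Ctsk stood at 25.8. On the control diet Map1lc3b stood at 524 TPM and Gabarap at 475 TPM, and on the VA-free diet at 321 and 387 TPM. The initiation genes Ulk1 and Ulk2 stood at 72.3 and 29.8 TPM on the VA-free diet and at 17.6 and 7.96 TPM on control.

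TFEB and TFE3 are related transcription factors that mTORC1 keeps in the cytoplasm and that switch on autophagy and lysosome genes when they enter the nucleus. Tfe3 (GRCm38 chrX:7762560-7775202) read 62.4, 83.7, 82.3 and 83.5 CPM in VA-free libraries 1B, 2A, 3A and 3B and 47.2, 46.4, 26.7 and 54.2 CPM in control libraries 1A, 1B, 2A and 2B. The libraries of the diets did not overlap, and Tfe3 rose 1.75-fold (log2 fold change 0.81, SE 0.17, adjusted p = 0.00865). Tfeb averaged 18.6 ± 1.92 CPM on the VA-free diet (n = 3) and 15.9 ± 7.61 CPM on control (n = 2), with control 1B at 28.6 and control 2A at 5.91 CPM, and was not called (log2 fold change 0.22, SE 0.30, adjusted p = 0.59). Without control 2B the log2 fold change of Tfe3 was 1.02 with an adjusted p of 0.0608. Without control mouse 1 that of Tfeb was 0.82 with an adjusted p of 0.0182.

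Both factors bind the CLEAR element, a palindrome built around the E-box core CACGTG, and the promoters were searched for it as a description of which members carry the letters. RefSeq promoters of GRCm38.p6, from 250 bases before to 50 after the start site, were at hand for 33 of the 41 genes. The core CACGTG, which reads the same on both strands, was in 10 of them (30.3%), against 8.09% of the 27025 genes with a promoter and 10.6% of those also tested here. Searched on both strands, TCACGTG was in 8 (24.2%, against 4.29% of all and 6.19% of tested genes) and the full TCACGTGA, which contains the shorter motifs, in 4 (12.1%, against 1.12% and 1.81%), namely Atg3, Mcoln1, Ctsa and Ctsd. Shown are 30-base stretches of these promoters and of Lamp1, which has 4 cores, and Gaa, the 1 gene with a core that rose. Capitals mark each CACGTG, the strand is that of the gene, and distances are counted from the first base of the core to the start site. The Atg3 stretch ends with its core 71 bases before the start, so the full TCACGTGA of Atg3 is not visible in it.
Atg3 (chr16:45158734-45158763, +, cores 94 and 71 bases before the start): tCACGTGtcctgggagagtcgagtCACGTG
Mcoln1 (chr8:3500436-3500465, +, core 71 bases before): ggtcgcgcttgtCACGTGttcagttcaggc
Mcoln1 (chr8:3500462-3500491, +, core 45 bases before): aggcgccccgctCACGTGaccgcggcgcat
Ctsa (chr2:164833743-164833772, +, core 12 bases before): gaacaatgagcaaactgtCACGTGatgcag
Ctsd (chr7:142388048-142388077, -, core 245 bases before): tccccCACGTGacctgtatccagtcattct
Ctsd (chr7:142387908-142387937, -, core 98 bases before): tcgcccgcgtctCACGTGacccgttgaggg
Lamp1 (chr8:13159096-13159125, +, cores 61 and 45 bases before): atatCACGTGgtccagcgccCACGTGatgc
Lamp1 (chr8:13159127-13159156, +, cores 28 and 15 bases before): gactggCACGTGaccacatCACGTGcggaa
Gaa (chr11:119267811-119267840, +, core 140 bases before): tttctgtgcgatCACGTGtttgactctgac

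The members with a core did not share a direction. Of the 10, 1 rose (Gaa), 3 fell (Atg3, Atg5, Ctsa) and 6 were not called (Atg14, Atg7, Mcoln1, Lamp1, Ctsd, Ctsl). Of all genes tested 18.9% rose and 22.5% fell. Without control 2A Atg3, Atg5 and Ctsa were not called in edgeR (adjusted p 0.157, 0.152 and 0.0504), and Ctsd and Ctsl were called lower. On TPM with a pseudocount of 1 in limma the same 3 falls were lost (adjusted p 0.677, 0.298 and 0.597). There Atg7 and Mcoln1 were called higher beside Gaa (adjusted p 0.0211 and 0.00271). Of the 4 with the full palindrome 2 fell (Atg3, Ctsa) and 2 were not called (Mcoln1, Ctsd). Both falls are among the calls lost in those fits, with Ctsd lower without control 2A and Mcoln1 higher on TPM. A match says only that the letters are in the window, and binding was not measured.

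The ULK complex holds the kinases ULK1 and ULK2, the scaffold RB1CC1 (FIP200) and the adaptor ATG13. The kinase genes rose and the scaffold and adaptor genes were not called in CPM, though they were on TPM, with a median log2 fold change of 0.76 over the 4 genes. Ulk1 (chr5:110784488-110810097) read 115, 131, 154 and 138 CPM in the VA-free libraries 1B, 2A, 3A and 3B and 43, 70.2, 12.4 and 59.5 CPM in the control libraries 1A, 1B, 2A and 2B. Each VA-free library was above each control library, and the rise was 2.82-fold (log2 fold change 1.50, SE 0.22, adjusted p = 0.00214). Without control 2B, which leaves control mouse 2 to library 2A at 12.4 CPM, the log2 fold change was 1.90 and the adjusted p 0.0796. Ulk2 (chr11:61775649-61855073) read 63.7, 62.4, 69.1 and 76.9 CPM in the VA-free libraries and 21.4, 23.1, 21.6 and 38.7 CPM in the control libraries. Its diets did not overlap either, and it rose 2.56-fold (log2 fold change 1.36, SE 0.16, adjusted p = 0.000895). Rb1cc1 averaged 94.1 ± 2.81 CPM (VA-free) and 90.8 ± 21.9 CPM (control) and was not called (log2 fold change 0.05, SE 0.16, adjusted p = 0.826), but control 2A stood at 154 CPM beside 69.2 to 76.0 in the other control libraries. Without that library it was called higher, with a log2 fold change of 0.36 and an adjusted p of 0.0248. Atg13 was not called (log2 fold change 0.17, SE 0.16, adjusted p = 0.458), and its libraries ran from 35.5 to 47.3 CPM over both diets.

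The class III PI 3-kinase makes PI3P at the forming membrane, with PIK3C3 (VPS34) as its catalytic subunit, beclin 1 as a regulatory subunit and ATG14 as the subunit that directs it to autophagy. None of the 3 genes passed the threshold in edgeR's test as reported, and 1 of them (Atg14) had an unadjusted p under 0.05 (0.0228). DESeq2 and limma-voom each called 1 higher, as did edgeR with the filter at a mean of at least 1 CPM and without control 1A. Becn1 averaged 113 ± 3.16 CPM on the VA-free diet and 130 ± 34 on control (log2 fold change -0.20, SE 0.17, adjusted p = 0.377). Its control mean rests on library 2A, at 227 CPM beside 98.6 to 104 in the others, and 39.6% of its 31-base words are shared with the overlapping gene Cntd1, which had 362 counts in all against 53166 for Becn1. Without control 2A its log2 fold change turned to 0.14 and was not called (adjusted p 0.307), and without control mouse 1 it was called lower at -0.45 (adjusted p 0.0161). Pik3c3 averaged 32.1 ± 3.23 and 38.7 ± 4.67 CPM (log2 fold change -0.27, SE 0.14, adjusted p = 0.183). Atg14 read 15.9, 16, 17.2 and 21.3 CPM in the VA-free libraries and 14.4, 10.4, 8.14 and 14.9 CPM in the control libraries. These did not overlap, but the difference missed the threshold (log2 fold change 0.51, SE 0.18, adjusted p = 0.0541). Without control 1A Atg14 was called higher in edgeR (log2 fold change 0.65, adjusted p 0.0351).

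Membrane is supplied by the lipid transfer protein ATG2A, the scramblase ATG9A and the PI3P readers WIPI1 and WIPI2, the last of which brings in ATG16L1. Of the 4 genes 2 rose and none fell, with a median log2 fold change of 0.78. Atg2a (chr19:6241668-6262335) had the largest rise of the 41 genes in CPM and the longest transcripts, at 5527 nucleotides. On TPM with a pseudocount of 1 its log2 fold change was 1.71, below those of Ulk1 and Ulk2 (1.99 and 1.80). Atg2a read 29.8, 33.5, 26.4 and 31.7 CPM in the VA-free libraries and 5.48, 14.8, 3.12 and 12.7 CPM in the control libraries. The VA-free values lay close together and well above every control value, and the rise was 3.45-fold (log2 fold change 1.79, SE 0.18, adjusted p = 0.000514). Wipi2 (chr5:142627698-142670588) read 115, 119, 132 and 158 CPM on the VA-free diet and 59.6, 70.3, 36.1 and 79 CPM on control, again without overlap, a 2.07-fold rise (log2 fold change 1.05, SE 0.15, adjusted p = 0.002). Its paralog Wipi1 was at a lower level and was not called (log2 fold change -0.14, SE 0.17, adjusted p = 0.535), with 18.1 to 21.3 CPM in the VA-free libraries and 16.6 to 28.7 CPM in the control libraries. Atg9a read 60, 66.3, 54.1 and 62.6 CPM (VA-free) and 47.7, 62.6, 9.49 and 53.2 CPM (control). It was not called (log2 fold change 0.50, SE 0.24, adjusted p = 0.136), and control 2A at 9.49 CPM was 0.178 times control 2B of the same mouse. Without control 1B Atg9a was called higher in edgeR (log2 fold change 0.65, adjusted p 0.0277), and without control mouse 1 its log2 fold change was 0.98.

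The conjugation machinery comprises the protease ATG4B, which trims the Atg8 proteins, the E1-like ATG7, the E2-like ATG3, and the ATG12, ATG5 and ATG16L1 chain that places the Atg8 proteins on the membrane. Of its 6 genes 2 fell and none rose, with a median log2 fold change of 0.10. Atg3 (chr16:45158785-45188538) read 74.6, 82.3, 84.6 and 80.4 CPM in the VA-free libraries and 96.4, 88.8, 224 and 89.6 CPM in the control libraries. The diets did not overlap and Atg3 fell (log2 fold change -0.60, SE 0.18, adjusted p = 0.0375), but control 2A stood at 224 CPM, far above the other control libraries. Without it the log2 fold change was -0.20 and the adjusted p 0.157, and the call was also lost without any 1 VA-free mouse, control mouse 2, control 1A or control 2B (adjusted p 0.075 to 0.12). Atg5 (chr10:44268358-44364291) averaged 39.5 ± 3.98 CPM on the VA-free diet and 53.5 ± 4.96 CPM on control and fell (log2 fold change -0.44, SE 0.13, adjusted p = 0.0368). Its libraries overlapped, since control 2B stood at 41.9 CPM and VA-free 1B at 42.9, and without control 2A the log2 fold change was -0.33 and the adjusted p 0.152. That call was also lost without VA-free mouse 2 or 3, control mouse 1 or control 1A (adjusted p 0.0511 to 0.124). Atg7 was not called (log2 fold change 0.46, SE 0.26, adjusted p = 0.211), with 51.4 to 62.5 CPM on the VA-free diet and 19.6 to 62.9 CPM on control. Atg16l1 averaged 49.5 ± 4.53 and 37.7 ± 8.11 CPM (log2 fold change 0.39, SE 0.17, adjusted p = 0.102), Atg4b 65.5 ± 3.89 and 57.8 ± 1.91 CPM (log2 fold change 0.18, SE 0.11, adjusted p = 0.24) and Atg12 40.8 ± 4.06 and 40.6 ± 0.774 CPM (log2 fold change 0.01, SE 0.13, adjusted p = 0.965). Atg7 and Atg16l1 were called higher without control mouse 1, with log2 fold changes of 1.01 and 0.63 and adjusted p of 0.00196 and 0.0157.

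Atg8 proteins decorate both faces of the autophagosome and hold the cargo receptors. Of the 5 genes 3 fell, and the median log2 fold change was -0.52. Map1lc3b (chr8:121590361-121598760), which encodes the LC3B protein widely used to follow autophagy, read 288, 324, 358 and 357 CPM in the VA-free libraries and 577, 570, 989 and 465 CPM in the control libraries. No library of one diet reached the other, and the control mean was 1.96 times the VA-free mean in the fit (log2 fold change -0.97, SE 0.14, adjusted p = 0.0018). Without control 2A, its highest library, the log2 fold change was -0.70 and the gene was still called. Gabarap (chr11:69991143-69994951) read 155, 192, 199 and 170 CPM (VA-free) and 311, 314, 334 and 247 CPM (control), and fell (log2 fold change -0.75, SE 0.13, adjusted p = 0.00476). Gabarapl2 (chr8:111940703-111953612), also known as GATE-16, read 59.6, 64.9, 71.3 and 61.9 CPM and 87.7, 104, 87.6 and 89.7 CPM, and fell (log2 fold change -0.52, SE 0.12, adjusted p = 0.0113). Neither gene overlapped between the diets, but Gabarapl2 was not called without VA-free mouse 1 or control 2B (adjusted p 0.0531 and 0.0508). Gabarap and Gabarapl2 have short transcripts of 913 and 1009 nucleotides, and once the length trend of all genes was removed their log2 fold changes were -0.12 and 0.06 with adjusted p of 0.553 and 0.734, while Map1lc3b kept -0.87 with an adjusted p of 0.00441. Map1lc3a averaged 97.5 ± 5.95 CPM and 121 ± 36.8 CPM and was not called (log2 fold change -0.31, SE 0.19, adjusted p = 0.233), but was called lower without control 2A (log2 fold change -0.48, adjusted p 0.0152). Gabarapl1 went the other way in sign and was not called (log2 fold change 0.41, SE 0.19, adjusted p = 0.131). Some reads cannot be told from related sequences, since Gabarapl2 shares 11.2% of its 31-base words with Gm3724 and Map1lc3b 4.19% with Gm6055. Gm3724 held 2612 counts in all against 33559 for Gabarapl2, and Gm6055 3675 against 205889 for Map1lc3b.

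The cargo receptors p62 (Sqstm1), NBR1 and optineurin bind both ubiquitin and an Atg8 protein. All 3 genes were called, 2 higher and 1 lower. Sqstm1 (chr11:50199366-50210827), the most abundant of the 41 genes per length, read 1597, 1811, 2125 and 2252 CPM in the VA-free libraries and 1224, 1188, 985 and 1391 CPM in the control libraries. The diets did not overlap and it rose 1.57-fold (log2 fold change 0.65, SE 0.16, adjusted p = 0.0174). Nbr1 (chr11:101552149-101581951) read 207, 193, 231 and 213 CPM on the VA-free diet and 132, 124, 71.8 and 170 CPM on control and rose 1.67-fold (log2 fold change 0.74, SE 0.12, adjusted p = 0.0034), with control 2A the lowest and control 2B the highest of its control libraries. Optn (chr2:5020642-5064051) was far less abundant, at 5.33, 6.68, 6.67 and 6.26 CPM (VA-free) and 12, 9.54, 7.7 and 10.9 CPM (control), and fell (log2 fold change -0.71, SE 0.21, adjusted p = 0.0315). Each of these calls was lost in some fits that left out 1 mouse or library. Without control 2B the adjusted p was 0.0695 for Sqstm1, 0.0519 for Nbr1 and 0.148 for Optn. Sqstm1 also missed the threshold without VA-free mouse 3 or control mouse 2 (adjusted p 0.0581 and 0.0599), and Optn without any 1 of the VA-free mice, control mouse 1 or control 1A (adjusted p 0.069 to 0.105). The overlapping gene Mrnip shares 16.3% of the words of Sqstm1 and held 1871 counts against 695664.

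The lysosomal membrane carries LAMP1 and LAMP2, heavily glycosylated proteins that line its inner face, the calcium channel mucolipin 1 and the cholesterol exporter NPC1. Of the 4 genes 1 rose and none fell. Npc1 read 42.2, 38.6, 43.7 and 35.7 CPM in the VA-free libraries and 26.9, 21.8, 24.9 and 29.8 CPM in the control libraries. The ranges were apart, and the rise was 1.56-fold (log2 fold change 0.64, SE 0.12, adjusted p = 0.00604). Npc1 has long transcripts (4674 nucleotides), and after removal of the length trend its log2 fold change was 0.07 with an adjusted p of 0.703. It shares 4.05% of its 31-base words with Rmc1, which held 14381 counts against 14992 for Npc1, so its reads are uncertain as well. Lamp2 averaged 532 ± 43.3 CPM on the VA-free diet and 414 ± 15.8 CPM on control and missed the threshold (log2 fold change 0.36, SE 0.12, adjusted p = 0.0521), with control 2A at 512 CPM inside the VA-free range of 472 to 563. It was called higher in 6 of the 24 alternatives, namely without control 2A (log2 fold change 0.45, adjusted p 0.0193), with DESeq2 or limma-voom, with the filter at a mean of 1 CPM, and on both TPM scales (0.64, adjusted p 0.00272 with a pseudocount of 1), and after removal of the length trend it stood at 0.04. Lamp1 read 362, 377, 386 and 392 CPM and 447, 447, 403 and 457 CPM, which did not overlap but gave no call (log2 fold change -0.21, SE 0.11, adjusted p = 0.189). Mcoln1 averaged 61.8 ± 3.6 CPM and 55.3 ± 0.936 CPM (log2 fold change 0.16, SE 0.11, adjusted p = 0.288).

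Lysosomal proteases include the aspartic protease cathepsin D, the cysteine cathepsins B, L, Z and K and the serine carboxypeptidase cathepsin A, which also shields other lysosomal enzymes. Of the 6 genes 3 fell and none rose, with a median log2 fold change of -0.34. Ctsk (chr3:95499256-95509362), a collagenase best known from osteoclasts and also made by fibroblasts, had the largest difference of the 41 genes. It read 1.72, 1.33, 1.81 and 2.76 CPM in the VA-free libraries and 32, 37.4, 9.18 and 30.2 CPM in the control libraries, or 74 to 1649 estimated counts. Every VA-free library was below every control library, and the fit gave a 15.2-fold fall (log2 fold change -3.93, SE 0.34, adjusted p = 0.000391). The marker sums of tenocytes (40.1 to 67.4 against 683 to 1199 CPM) and of macrophages and monocytes (28.2 to 170 against 205 to 991 CPM) were lower in the VA-free libraries. Of the 10 markers of fibro-adipogenic progenitors 6 were lower and 1 higher, with a median log2 fold change of -3.09, although their sum, in which Col3a1 is the most abundant, was higher (16790 to 19090 against 8883 to 15130 CPM). The part of these cells in the fall of Ctsk was not tested. Without control 2A, which held the lowest control value, the log2 fold change was -4.18.

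The abundant cathepsins differed far less. Ctsa read 151, 166, 161 and 159 CPM (VA-free) and 185, 192, 236 and 198 CPM (control) and fell (log2 fold change -0.33, SE 0.11, adjusted p = 0.0459). Ctsz averaged 439 ± 18.4 CPM on the VA-free diet and 582 ± 70 CPM on control and fell (log2 fold change -0.41, SE 0.12, adjusted p = 0.0365), with control 1B at 448 CPM inside the VA-free range of 410 to 456. Both calls were weak. Ctsa was not called without any 1 VA-free mouse, any 1 control library or control mouse 2, with adjusted p from 0.0504 to 0.151, and Ctsz not without any 1 VA-free mouse, control mouse 2, control 1A, 2A or 2B, with adjusted p from 0.0871 to 0.175. Ctsb read 979, 1065, 1e+03 and 1102 CPM and 1020, 922, 1309 and 1060 CPM and gave no call (log2 fold change -0.04, SE 0.12, adjusted p = 0.831). Ctsd (log2 fold change -0.36, SE 0.15, adjusted p = 0.106) and Ctsl (log2 fold change -0.09, SE 0.18, adjusted p = 0.738) were not called with all libraries, but control 2A stood at 323 CPM for Ctsd beside 561 to 629 in the other control libraries and at 241 CPM for Ctsl beside 551 to 590. Without control 2A both were called lower, with log2 fold changes of -0.54 and -0.32 and adjusted p of 0.00525 and 0.0492. The reads of Ctsd are uncertain, since 33.2% of its words are shared with Gm49369, as are those of Ctsa, which shares 7.67% with the overlapping Pltp, and of Ctsb, which shares 12.4% with Fdft1. Gm49369 held 9897 counts in all against 204674 for Ctsd, Pltp 36662 against 78446 for Ctsa, and Fdft1 44517 against 463518 for Ctsb. Rb1cc1, Lamp1, Ctsl and Hexa share 5.6 to 11.4% with 1 other gene each, none of which held more than 1882 counts.

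Among the other lumenal proteins, acid alpha-glucosidase (Gaa) breaks down glycogen, hexosaminidase A (Hexa) degrades gangliosides, NPC2 hands cholesterol to NPC1, and prosaposin (Psap) is cut into activators of sphingolipid hydrolases. Of the 4 genes 1 rose and 2 fell. Gaa (chr11:119267887-119285454) read 229, 258, 239 and 268 CPM in the VA-free libraries and 152, 185, 52 and 174 CPM in the control libraries, without overlap, and rose 1.75-fold (log2 fold change 0.81, SE 0.19, adjusted p = 0.0145). Without control 2B, which leaves control mouse 2 to library 2A at 52.0 CPM, its adjusted p was 0.146, and without control 1A, at 0.05, it just missed the threshold. Npc2 (chr12:84754562-84773152) read 85.6, 98.6, 90.2 and 89 CPM and 168, 149, 227 and 148 CPM. The highest VA-free value was 98.6 CPM and the lowest control value 148 CPM, and the control level was 1.86 times the VA-free level (log2 fold change -0.90, SE 0.11, adjusted p = 0.00113). Of the partners in cholesterol export Npc1 thus rose and Npc2 fell, but after removal of the length trend Npc1 was not called (0.07, adjusted p 0.703), while Npc2 stood at -1.28 and was still called lower. Psap (chr10:60277627-60302597) read 518, 570, 553 and 478 CPM and 691, 675, 585 and 863 CPM and fell (log2 fold change -0.39, SE 0.11, adjusted p = 0.0294), but was not called without any 1 VA-free mouse or without control 2B. Hexa was not called (log2 fold change -0.04, SE 0.11, adjusted p = 0.831), but was called higher on TPM with a pseudocount of 1 in limma (0.40, adjusted p 0.0251).

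Within several genes the share of the transcripts differed between the diets. Of 35 members with at least 2 transcripts at 5% or more of the gene's TPM in some library, 22 of 139 transcripts (15.8%) had shares that did not overlap between the diets, a description with no test, where 12.8% of 52776 such transcripts of all genes tested did so. For Lamp2, whose splice forms differ in the last exon, Lamp2-201 (1769 nucleotides) held 26.6, 27.8, 25.7 and 25.2% of the TPM in the VA-free libraries and 44.2, 50.7, 40.8 and 45.2% in the control libraries. Lamp2-202 (3604 nucleotides) held 67.9, 67.5, 70 and 71% and 52.5, 46.4, 56 and 52.2%. The longer form thus had the larger share on the VA-free diet, while the gene as a whole missed the threshold in the reported fit. For Mcoln1 the protein-coding Mcoln1-201 held 59.6, 57.1, 57.4 and 63.7% and 74.2, 65.4, 76.3 and 73.3%, and Mcoln1-205, a form with a retained intron, 17.1, 16.3, 16.7 and 14.9% and 5.7, 4.38, 2.12 and 5.2%. Of the 34 forms with a retained intron 28 overlapped between the diets, 5 had larger shares on the VA-free diet and 1 a smaller one, which is near the 13.5% and 3% of 10194 such forms over all genes tested. The larger ones included Atg4b-202, with 5.38 to 6.79% against 1.40 to 4.10%, and Sqstm1-203, with 4.84 to 5.39% against 2.64 to 3.94%, and the smaller one was Gabarapl2-203 (69.5 to 70.9% against 71.2 to 75.1%). The short Map1lc3b-205 (766 nucleotides) held 26.6, 17.6, 24.4 and 18.6% and 36.2, 32.8, 37.6 and 30.8%. For Wipi1, Wipi1-202 held 73.9 to 82.4% against 38.6 to 65.5%. Shares of transcripts are estimates from short single-end reads and depend on the coverage along each transcript.

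**Figure D3:**
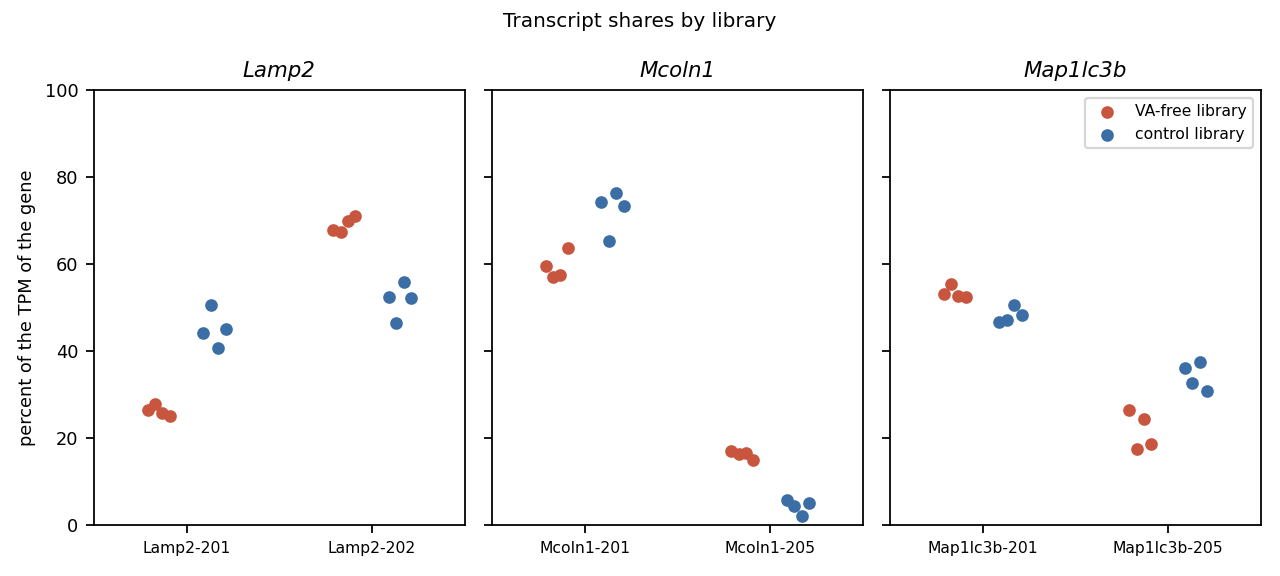
Share of the gene's TPM (percent) held by named transcripts of Lamp2, Mcoln1 and Map1lc3b, with 1 point per library, red for VA-free and blue for control. The diets do not overlap for any of the 6 transcripts drawn, and Lamp2-202 lies at 67.5 to 71.0% on the VA-free diet and at 46.4 to 56.0% on control.

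The genes that rose had a median length, weighted by transcript level, of 3670 nucleotides, those that fell 1774 and those not called 2172. In the whole table the medians were 3271, 1406 and 2050 nucleotides, so the order was the same. To remove the length trend, log2 CPM relative to the mean of the gene was fitted smoothly on log2 length in each mouse, over all genes tested. Once that fit was taken out, 6 of the 41 were called higher and 9 lower, beside 12% and 17.7% of all genes tested. Of the 6, 5 had the same call before, and of the 9, 7 did. Ulk1, Ulk2, Atg2a, Wipi2 and Sqstm1 were still called higher, at log2 fold changes of 1.07, 0.82, 1.15, 0.54 and 0.67, and Atg4b joined them at 0.38. Nbr1, Tfe3, Npc1 and Gaa were no longer called. The falls of Gabarap, Gabarapl2, Ctsa and Ctsz were also lost, at log2 fold changes of -0.12, 0.06, -0.20 and -0.11. Pik3c3 and Atg12 were called lower there, at -0.67 and -0.47.

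**Figure D4:**
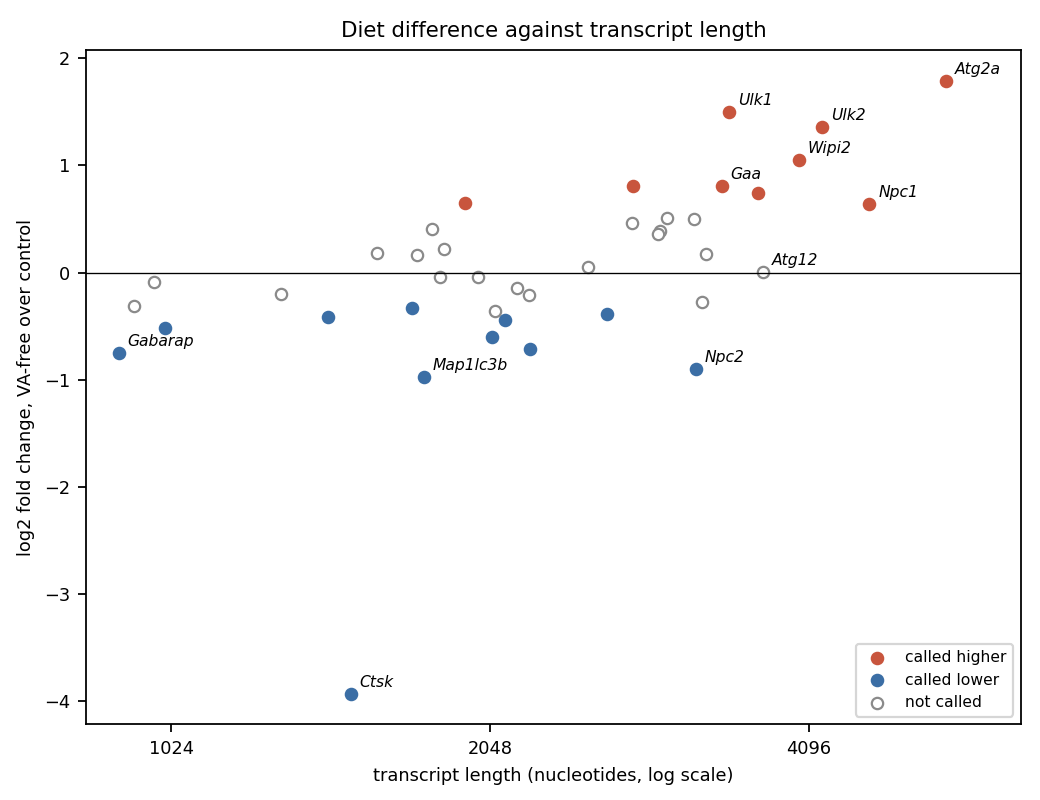
Log2 fold change (VA-free over control) of each of the 41 genes against its transcript length in nucleotides on a log scale, colored by call. Of the 9 genes called higher, with a median length of 3670 nucleotides, most lie to the right, but Sqstm1 lies among the shorter genes at 1940 nucleotides, and Ctsk lies apart at the bottom.

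The number of genes that passed also differed in the fit on TPM. There the scale, the normalization between libraries and the test all changed, so their parts cannot be told apart. On the authors' TPM, as log2(TPM + 1) in limma, 19 of the genes were called higher and 3 lower, beside 32.2% and 14.7% of all genes tested. In this fit the median of all genes was 0.19, and the median of the members was 0.40, which is 0.21 above it, with 27 of the 41 genes above the median of all genes. With a pseudocount of 0.1 the medians were 0.35 and 0.41, which differ by 0.05, with 24 of the 41 above. The 3 genes that fell on both scales were Map1lc3b, Ctsk and Npc2, and all 9 that rose in CPM also rose in TPM. The signs of Ctsa, Ctsz and Psap turned, at 0.06, 0.05 and 0.05, where they were not called. By step, TPM with a pseudocount of 1 called all 4 genes of the ULK complex higher, with Rb1cc1 and Atg13 added at 0.61 and 0.64 (adjusted p 0.0244 and 0.0197). Membrane supply had 3 higher with Atg9a added, the conjugation machinery 3 higher (Atg4b, Atg7, Atg16l1) and none lower, and the lysosomal membrane 3 higher with Mcoln1 and Lamp2 added. Of the Atg8 genes 1 was higher (Gabarapl1) and 1 lower, of the cargo receptors 2 were higher and none lower, of the cathepsins none was higher and 1 lower (Ctsk), and of the other lumenal genes 2 were higher and 1 lower. The transcription factors kept 1 call, Tfe3, and the class III PI 3-kinase had none.

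Leaving out control 2A changed which genes passed more than how many. Without it 11 were called higher and 10 lower, beside 18% and 21.6% of 17957 genes tested. All 9 genes that had risen were among the 11, with Rb1cc1 and Lamp2 added, and 7 of the 11 that had fallen were among the 10. Atg3, Atg5, Ctsa and Ctsz were lost, and Map1lc3a, Ctsd and Ctsl were added. Among the Atg8 genes 4 of 5 were then called lower. Leaving out control 2B instead, so that 2A alone stood for that mouse, left 4 genes called higher and 5 lower, beside 9.08% and 16.1% of 17769 genes tested.

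**Figure D5:**
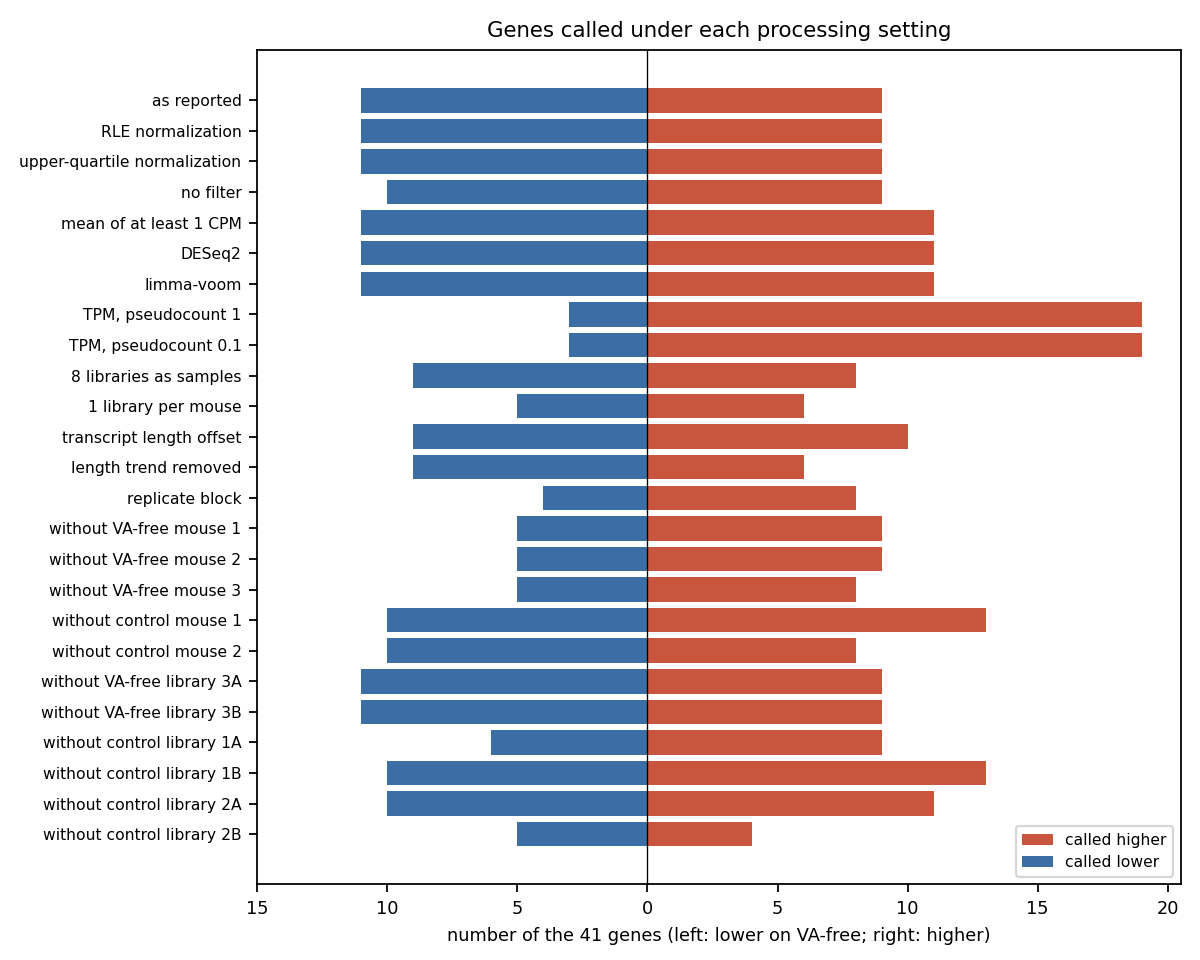
Number of the 41 genes called higher (right) and lower (left) on the VA-free diet, as reported and under each of 24 other settings. The split is 9 to 11 as reported, 19 to 3 on either TPM scale and 4 to 5 without control 2B.

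Lists of further genes of the same routes, again written with earlier results known, were read in the same fit. Without control 2A the counts higher and lower were 9 and 3 of 32 other autophagy genes, 6 and 9 of 38 genes of mTORC1 and TFEB control, 2 and 8 of 17 genes of the vacuolar ATPase, 3 and 9 of 35 other lumenal genes and 3 and 2 of 19 other genes of the lysosomal membrane and of trafficking. Without control 2B they were 7 and 3, 4 and 9, 0 and 8, 1 and 5, and 2 and 2, in the same order of lists. Over all genes tested 18% were higher and 21.6% lower without control 2A, and 9.08% and 16.1% without control 2B. Those shares were 18.9% and 22.5% with all libraries, 32.2% and 14.7% on TPM with a pseudocount of 1, and 12% and 17.7% with the length trend taken out. With all libraries, of 32 other autophagy genes 11 rose and 6 fell (median log2 fold change 0.23), while on TPM with a pseudocount of 1, the TPM scale used for these lists, 17 were higher and 2 lower (median 0.54), and with the length trend taken out 4 and 6. Ambra1, a cofactor of beclin 1, rose with 56.9 ± 0.503 CPM (VA-free) against 18.7 ± 5.88 CPM (control; SD) and a log2 fold change of 1.60 (SE 0.20, adjusted p = 0.0012), and Epg5, a tether for fusion with the lysosome, with 17.8 ± 3.65 CPM (VA-free) against 6.6 ± 0.846 CPM (control; SD) and a log2 fold change of 1.43 (SE 0.24, adjusted p = 0.00333). Atg101, a partner of ATG13 in the ULK complex, fell with 39.5 ± 6.26 CPM (VA-free) against 76.7 ± 6.07 CPM (control; SD) and a log2 fold change of -0.96 (SE 0.15, adjusted p = 0.00296), and Vamp8, a SNARE of autophagosome fusion, with 12 ± 0.159 CPM (VA-free) against 45.6 ± 1.21 CPM (control; SD) and a log2 fold change of -1.92 (SE 0.12, adjusted p = 0.000226). The receptor for ferritin Ncoa4 rose with 160 ± 10.3 CPM (VA-free) against 107 ± 1.34 CPM (control; SD) and a log2 fold change of 0.59 (SE 0.11, adjusted p = 0.00624), and the receptor Tax1bp1 fell with 242 ± 7.78 CPM (VA-free) against 324 ± 50.5 CPM (control; SD) and a log2 fold change of -0.42 (SE 0.13, adjusted p = 0.0373). For Tax1bp1 control 2A read 536 CPM and control 1A and 1B 300 and 255 CPM. Control 2B read 226 CPM, below the VA-free range of 227 to 249 CPM. Rab7, which marks late endosomes, and the receptor Calcoco1 were not called (adjusted p 0.0548 and 0.571).

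Upstream, 10 of the 38 genes of mTORC1 and TFEB control rose and 10 fell (median 0.18), while on TPM 19 were higher and 4 lower (median 0.54). With the length trend taken out 5 were higher and 5 lower, and the median turned to -0.16. Mtor, the kinase itself, rose with 51.3 ± 5.28 CPM (VA-free) against 17.2 ± 2.08 CPM (control; SD) and a log2 fold change of 1.58 (SE 0.15, adjusted p = 0.000497), and Rptor, its partner raptor, with 45.1 ± 1.16 CPM (VA-free) against 13.5 ± 2.13 CPM (control; SD) and a log2 fold change of 1.74 (SE 0.15, adjusted p = 0.000387). Tsc2, part of the complex that holds mTORC1 back, rose with 149 ± 10.4 CPM (VA-free) against 65.1 ± 8.18 CPM (control; SD) and a log2 fold change of 1.20 (SE 0.13, adjusted p = 0.000768), whereas Rheb, the GTPase that activates mTORC1, fell with 89.9 ± 7.35 CPM (VA-free) against 187 ± 40.9 CPM (control; SD) and a log2 fold change of -1.06 (SE 0.16, adjusted p = 0.00218). Lamtor2 and Lamtor5, small subunits of the Ragulator that anchors mTORC1 on the lysosome, fell with log2 fold changes of -1.48 and -1.57 (SE 0.15 and 0.11, adjusted p 0.000585 and 0.000246). Foxo1, a transcription factor that induces autophagy genes in muscle, rose with 146 ± 15.8 CPM (VA-free) against 103 ± 11.8 CPM (control; SD) and a log2 fold change of 0.50 (SE 0.14, adjusted p = 0.0263). Deptor, an inhibitor of mTOR, was not called (adjusted p 0.612).

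Of 17 genes of the vacuolar ATPase, the pump that acidifies the lysosome, 2 rose and 9 fell (median -0.64), while on TPM 6 were higher and 6 lower (median -0.13). The small subunits Atp6v0e and Atp6v1g1 fell with 68.9 ± 4.26 CPM (VA-free) against 199 ± 8.74 CPM (control; SD) and a log2 fold change of -1.53 (SE 0.11, adjusted p = 0.000254) and 84.1 ± 2.72 CPM (VA-free) against 231 ± 48.4 CPM (control; SD) and a log2 fold change of -1.46 (SE 0.15, adjusted p = 0.000547), while Atp6v1a, the catalytic subunit, and Atp6v0a2 rose with 215 ± 15.4 CPM (VA-free) against 151 ± 3.81 CPM (control; SD) and a log2 fold change of 0.51 (SE 0.12, adjusted p = 0.0117) and 112 ± 9.41 CPM (VA-free) against 77.2 ± 2.65 CPM (control; SD) and a log2 fold change of 0.53 (SE 0.12, adjusted p = 0.011). Atp6v0c and Atp6ap1 were not called (adjusted p 0.368 and 0.983). After removal of the length trend 8 of the 17 fell and none rose.

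Of 35 other lumenal genes 5 rose and 10 fell (median -0.12), while on TPM 11 were higher and 3 lower (median 0.30), and with the length trend taken out 2 and 13. The sulfatase Arsb rose with 80.5 ± 4.82 CPM (VA-free) against 47.1 ± 3.71 CPM (control; SD) and a log2 fold change of 0.77 (SE 0.12, adjusted p = 0.00253). The largest falls were those of the cathepsins Ctss and Ctsc, which are abundant in macrophages, with 2.63 ± 2.71 CPM (VA-free) against 34.2 ± 37.1 CPM (control; SD) and a log2 fold change of -3.73 (SE 1.02, adjusted p = 0.0243) and 9.43 ± 9.13 CPM (VA-free) against 58.9 ± 40.6 CPM (control; SD) and a log2 fold change of -2.66 (SE 0.88, adjusted p = 0.0478). The control mice lay far apart for both, and the macrophage and monocyte sum differed in the same direction (28.2 to 170 CPM against 205 to 991 CPM); its part in these falls was not tested. Acid ceramidase (Asah1) and Ppt1 fell with log2 fold changes of -0.57 and -0.42 (adjusted p 0.0124 and 0.0241), and progranulin (Grn) and Gm2a were not called (adjusted p 0.706 and 0.588). Of 19 other genes of the lysosomal membrane and of trafficking 4 rose and 4 fell, while on TPM 9 were higher and 2 lower, and with the length trend taken out 1 and 4. Igf2r, the mannose 6-phosphate receptor that carries hydrolases to the lysosome, rose with 335 ± 28.6 CPM (VA-free) against 83.2 ± 19.5 CPM (control; SD) and a log2 fold change of 2.01 (SE 0.18, adjusted p = 0.000418), and Sort1, another sorting receptor, with 48 ± 6.49 CPM (VA-free) against 24.4 ± 0.126 CPM (control; SD) and a log2 fold change of 0.98 (SE 0.15, adjusted p = 0.00249). Its control libraries 2A and 2B read 2.52 and 45.6 CPM, the latter inside the VA-free range of 42.0 to 53.7 CPM. M6pr, the smaller mannose 6-phosphate receptor, was not called (165 ± 7.21 CPM (VA-free) against 159 ± 0.447 CPM (control; SD) and a log2 fold change of 0.05 (SE 0.11, adjusted p = 0.739)). The membrane proteins Laptm4a, Cd63 and Tmem192 fell with log2 fold changes of -0.98, -0.50 and -1.39 (adjusted p 0.000733, 0.0339 and 0.00106), and Acp5, at 1.65 ± 1.47 CPM on control (SD, n = 2), fell by 2.45 on the log2 scale with an adjusted p of 0.0283.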

How the data were processed

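RNA of nGFP+ MuSCs was measured in 8 libraries made with SMART-Seq v4 and Nextera XT, which do not mark the strand. The authors ran Kallisto 0.46.2 against the transcripts of Ensembl release 96 (GRCm38) and deposited estimated counts, TPM and effective lengths per transcript and library, without normalization between libraries. The authors' TPM values are scaled to a fixed total, so they keep no depth.

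Estimated counts of 116816 of 118489 transcripts were added per gene through GENCODE M21, the same annotation, then over the libraries of a mouse, and rounded. Transcripts without a gene held 0.647% to 0.756% of a library. Totals were 44831232 to 88650428 counts per library, and the lowest member count in a library was 74. The test was edgeR 4.0.16 (R 4.3.3; filterByExpr, TMM, quasi-likelihood test, Benjamini-Hochberg adjustment, threshold 0.05), with the standard error as the size of the log2 fold change over the square root of F. The scripts were tested on simulated data. The technical replicates share a mouse, and with 2 control mice the spread on that diet rests on 1 difference.

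The 41 members, the lists of other genes and the tests were chosen with earlier results of these data known. All 41 members are named, and of each other list the 4 most abundant genes and the 2 largest rises and 2 largest falls past the threshold, and of each marker list the 2 most abundant, except 1 gene that is not reported here. Shared 31-base words between transcripts of different genes were counted as a sign of uncertain reads. Alternatives were RLE and upper-quartile normalization, no filter or a mean of at least 1 CPM, DESeq2 1.42.0, limma-voom 3.58.1, log2 TPM with a pseudocount of 1 or 0.1 in limma, 8 libraries as samples, 1 library per mouse, a transcript length offset, the length trend removed, a replicate block, and leaving out each mouse and each library of a mouse with 2. Motif windows came from RefSeq.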

Additional observations from a re-analysis of the deposited data

Results flagged for a closer look

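In groups of 4 libraries, a value far from the other 3 was found for 8 of the 82 groups of CPM values (41 genes in each diet), where chance gives about 1 in 20. That rate assumes independent values, but libraries A and B of a mouse share that mouse, so it is only a rough guide. Of the 8, 4 lay in control 2A, namely Rb1cc1 at 154 CPM, Becn1 at 227 CPM and Atg3 at 224 CPM, each above the other control libraries, and Ctsl at 241 CPM, below them. The others were Ulk2 at 38.7 CPM in control 2B, Atg16l1 at 50.5 CPM and Gabarapl2 at 104 CPM in control 1B, all above the other control libraries, and Tfe3 at 62.4 CPM in VA-free 1B, below the other VA-free libraries.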

How the results depend on the processing

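Over the 24 alternatives and 41 members, 843 log2 fold changes kept their side of the threshold, 87 lost and 44 gained the call, and 10 that were called in either fit turned in sign. A further 50 turned in sign while not called in either fit, so that 17 members changed sign in some alternative, Atg12, Ctsb, Ctsl and Becn1 most often. The 10 were Atg12 (-0.47) and Gabarapl2 (0.06) with the length trend removed, and Ctsa (0.06), Ctsz (0.05), Psap (0.05) and Hexa (0.40 with a pseudocount of 1 and 0.41 with 0.1) on both TPM scales; the cause was not tested. TPM gave 19 members higher and 3 lower with either pseudocount and medians of 0.40 and 0.41, beside 0.19 and 0.35 over all genes. With 1 library per mouse 6 members were higher and 5 lower, beside 2156 and 2957 of 16667 genes tested (3403 and 4056 of 17997 as reported), the median was -0.12 and 46 genes of the other lists were called, against 71. That fit kept VA-free 1B, 2A and 3A and control 1A and 2A, so control mouse 2 rested on library 2A alone, as it did without control 2B. The replicate numbers did not pair the mice (correlation of deviations -0.07 and 0.01 for the 2 shared numbers), and with the replicate block 8 members were called higher, 4 lower and 43 genes of the other lists, beside 2339 higher and 2903 lower over all genes. Leaving out 1 mouse or library gave 4 (without control 2B) to 13 members higher, 5 (without control 2B or any VA-free mouse) to 11 lower, 4476 (without control 2B) to 7744 genes called over all genes, 41 (without control 2B) to 80 in the other lists, and medians of -0.15 (without control 2B) to 0.08. Without control 1A 6 members were called lower. Where 1 control mouse was left, it is assumed to vary like the VA-free mice. The lowest member count in a library was 74 (Ctsk), and the part of depth in the calls was not tested. The comparison rests on 5 mice.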
